A study of Mus musculus with 82 samples.

Results

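Lysosomes are acidic organelles in which hydrolases break down proteins, lipids and sugar chains, and autophagy is the route by which a cell wraps its own contents in a membrane and delivers them there. The transcription factor TFEB is known as a main activator of both gene sets through a short E-box element in their promoters, and FOXO3 is known to support autophagy in blood stem cells. In hematopoietic stem cells (HSCs), the bone marrow cells that give rise to all blood lineages, lysosomal activity and autophagy are tied to quiescence.

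The lysosome and autophagy genes described here are 48 genes, taken by symbol from the 55376 genes of the raw count tables, and each was found. They comprise 2 transcription factors, 7 lysosomal membrane proteins, 8 proteases, 9 other hydrolases and 3 soluble cofactors. The autophagy side comprises 7 genes of initiation, 6 of the machinery that conjugates ATG8 proteins to lipid, and 6 genes of ATG8 proteins and a receptor.

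The study compared HSCs of young and old male C57BL/6J mice and lowered a shorter variant of Btaf1 in old HSCs. mRNA-seq covered 4 libraries of young HSCs (YHSCs), each from pooled mice, and 8 of old HSCs (OHSCs), each from 1 mouse, all sorted as LSKCD34-Flk2-CD150+ cells without treatment. OHSCs infected with a lentivirus carrying GFP and a scrambled control shRNA, shRNA1 or shRNA2 against the Btaf1 variant were profiled in culture with stem cell cytokines, with 2 libraries per shRNA. The same 3 shRNA groups were profiled after transplantation into irradiated young recipients, as donor GFP+ cells sorted again and pooled over several recipients, with 2 libraries per shRNA. Common myeloid (CMP), granulocyte-macrophage (GMP) and megakaryocyte-erythroid progenitors (MEP) of young mice had 2 libraries each. ATAC-seq, which measures open chromatin, is given for 4 YHSC and 4 OHSC libraries, and H3K27ac, a histone mark of active promoters and enhancers, for 2 libraries per age. A further 4 old ATAC-seq libraries matched no listed sample and were not analysed here, so the accessibility values rest on part of the OHSC libraries.

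Library depth ran from 20475764 to 24654742 reads on genes in YHSCs and OHSCs, from 37292602 to 42737054 in the shRNA libraries and from 33177394 to 36510850 in the progenitors. Levels are given as CPM, the count of a gene scaled to its library size with TMM factors over the 30 mRNA-seq libraries. The summed level of 7 HSC markers was 2280 to 2440 CPM in YHSCs, 2270 to 2500 CPM in OHSCs and 2.05 to 2.82 CPM in MEP. Of the 48 genes, Ctsk, an osteoclast protease, had 0 to 7 reads in each library and was not tested in any comparison, and the other 47 were tested in all of them. "Called" means an adjusted p below 0.05 in edgeR's quasi-likelihood test, with Benjamini-Hochberg adjustment over all genes tested.

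Per kilobase of exon, the members differed widely in YHSCs. Psap, the precursor of the saposins that help degrade sphingolipids, was highest at 165 CPM per kilobase, followed by the ATG8 protein gene Gabarapl1 at 122 and Lamp1, an abundant glycoprotein of the lysosomal membrane, at 94.4. The transcription factors Foxo3 and Tfeb stood at 4.05 and 3.44 CPM per kilobase. Gla, which encodes alpha-galactosidase A, was the lowest tested member at 1.25 CPM per kilobase.

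TFEB is known to bind the E-box CACGTG, best when flanked on both sides in a longer palindrome, so the promoters were searched for these letters on both strands. RefSeq gave a promoter window of 250 bases before to 50 bases after a start, on GRCm38.p6, for 42 of the 48 members, the others being Becn1, Atg16l1, Ctsb, Npc1, Atg12 and Map1lc3a. CACGTG lay in the window of 14 of these 42 genes (33.3%), against 8.09% of 27025 genes with a window. GTCACGTG on either strand lay in 11 members (26.2%), against 2.55% of all genes. The full palindrome, which is GTCACGTG followed by AC and so contains both shorter motifs, was found in 1 member, the membrane protein gene Cln3 (2.38%), against 0.37% of all genes. These matches describe the letters of the windows and are not binding data.

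Mfsd1, which encodes a lysosomal membrane transporter, held 5 matches and Lamp1 held 4, more than the other members with a match, which held 1 or 2. Their sites are given with those of Mcoln1, the lysosomal calcium channel, and Ctsd, the aspartic protease cathepsin D, as examples. These are 4 of the 8 genes that had both a match and higher mRNA in OHSCs, the others being Ctsa, Gla, Gaa and Ctsl. Capitals mark CACGTG, each line is read 5′ to 3′ on the strand of the gene, and adjacent lines of a gene overlap where sites lie close together. The Mfsd1 sites lie in chr3:67582670-67582767 (plus strand), those of Lamp1 in chr8:13159088-13159163 (plus), those of Mcoln1 in chr8:3500436-3500491 (plus) and those of Ctsd in chr7:142387908-142388077 (minus). The sequence of the first Ctsd site is cut by the edge of the window.
Mfsd1 site at -86: gagcccggccacCACGTGagcaaccgttca
Mfsd1 site at -70: tgagcaaccgttCACGTGagcacggagagg
Mfsd1 site at -36: gcccgagcaagtCACGTGaacacacgtgat
Mfsd1 site at -26: gtcacgtgaacaCACGTGatcacgtgagtg
Mfsd1 site at -18: aacacacgtgatCACGTGagtgctgccgct
Lamp1 site at -61: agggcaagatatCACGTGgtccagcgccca
Lamp1 site at -45: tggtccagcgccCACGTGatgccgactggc
Lamp1 site at -28: gatgccgactggCACGTGaccacatcacgt
Lamp1 site at -15: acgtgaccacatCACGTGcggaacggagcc
Mcoln1 site at -71: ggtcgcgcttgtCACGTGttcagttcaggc
Mcoln1 site at -45: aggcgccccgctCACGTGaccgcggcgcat
Ctsd site at -245: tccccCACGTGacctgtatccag
Ctsd site at -98: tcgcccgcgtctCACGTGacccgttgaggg

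Positions give the first base of CACGTG from the transcription start. In Mfsd1 and Lamp1 each match lay within the 86 bases before the start, while both Ctsd matches lay farther out.

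With age, lysosomal membrane proteins and proteases shifted mostly upward and both transcription factors fell. Of 47 members tested, 14 rose and 7 fell in OHSCs (44.7% called), against 20.6% of 21522 genes called in either direction, 11.9% higher and 8.67% lower. With 1 library left out at a time, 11 to 15 rose and 3 to 7 fell. The changes were small: 1 rise and 1 fall passed 1.5-fold, against 7.52% of genes in either direction, and the median difference over the members was 0.04 on the log2 scale, against -0.01 over all genes. All p-values measure the spread between libraries, where each YHSC library is a pool and each OHSC library a single mouse.

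Markers of other blood cells also moved with age, in both directions. The summed level of 7 megakaryocyte markers was 448 to 481 CPM in YHSCs and 817 to 1130 CPM in OHSCs, without overlap. Of these, Itga2b, Vwf, Gp5 and Gp9 were called higher and Ppbp lower. The 8 granulocyte markers summed to 116 to 302 CPM (median 168) in YHSCs and 263 to 397 CPM (median 290) in OHSCs. Prtn3 was the 1 marker of these called higher, at 107 to 123 CPM in YHSCs and 254 to 310 CPM in OHSCs. The other 7 had log2 fold changes from -3.25 to -0.32, and of these Mpo was called lower (adjusted p = 0.047), with a median of 0.682 CPM in YHSCs and 0.65 CPM in OHSCs. The 8 erythroid markers summed to 163 to 229 CPM (median 185) in YHSCs and 62.0 to 194 CPM (median 80.7) in OHSCs, but moved both ways: 5 were called lower, led by Car1 at 102 to 153 CPM in YHSCs and 0.279 to 16.9 CPM in OHSCs, and Hbb-bs, Hba-a1 and Alas2 were called higher. No marker of these lists was at 0 in every library of either age, and their part in the changes of the members was not tested.

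**Figure D1:**
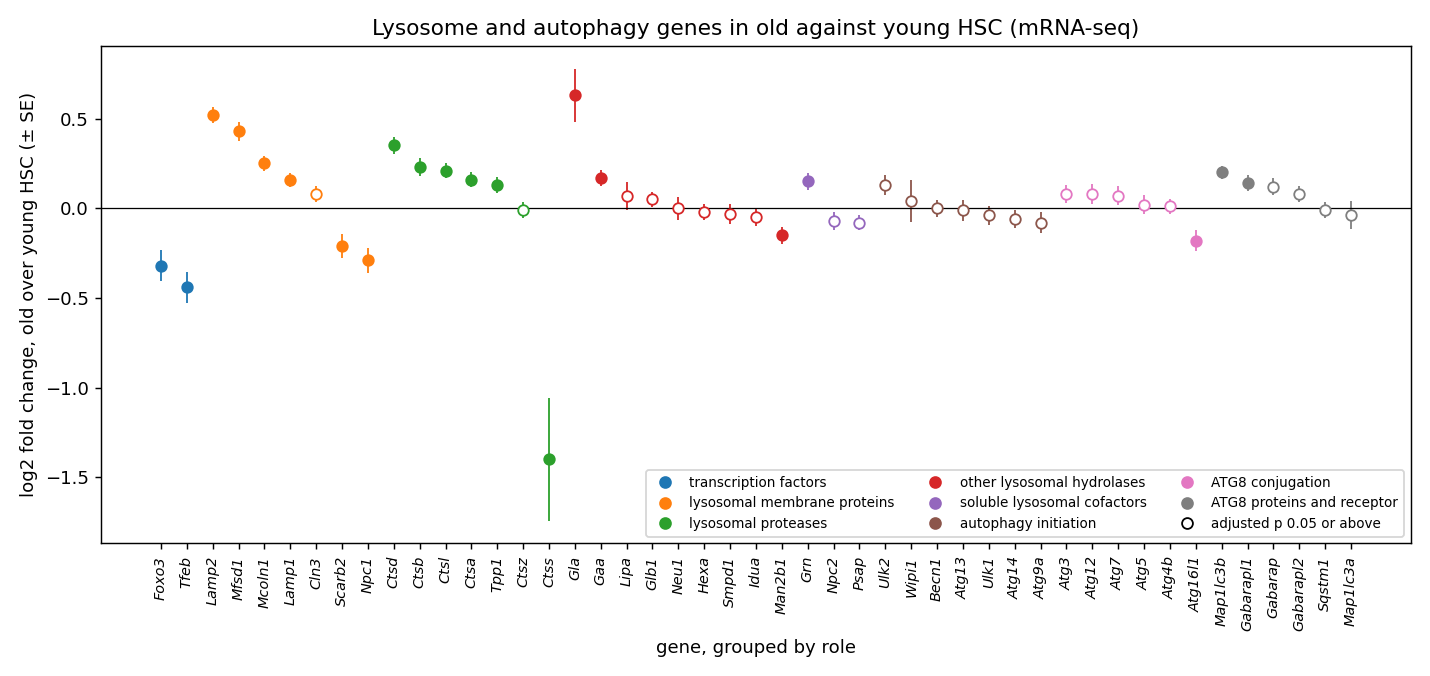
The log2 fold change of each tested member in OHSCs over YHSCs (vertical axis, ± SE of edgeR's fit), with genes grouped and coloured by role along the horizontal axis and filled points for an adjusted p below 0.05. Both transcription factors lie below 0, 9 filled membrane protein and protease genes lie above 0, and no gene of autophagy initiation is filled.

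Tfeb, at chr17:47737030-47792419 (plus strand, mm10), had 22.8, 18.2, 20.1 and 17.0 CPM in the 4 YHSC libraries and 12 to 15.7 CPM (median 14.1) in the 8 OHSC libraries. The lowest YHSC library lay above the highest OHSC library, and Tfeb fell by 0.44 on the log2 scale (SE 0.0858, adjusted p = 0.000495). Foxo3 had 29.5, 30.2, 28.5 and 34.5 CPM in YHSCs and 19.2 to 28.2 CPM (median 25.0) in OHSCs. It also did not overlap between ages and fell by 0.32 on the log2 scale (SE 0.0878, adjusted p = 0.0109). Without the fourth YHSC library, which had the highest Foxo3 level, the adjusted p of Foxo3 was 0.079.

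Of 7 lysosomal membrane protein genes, 4 rose and 2 fell. Lamp2, the receptor of chaperone-mediated autophagy, had 246, 235, 240 and 255 CPM in YHSCs and 314 to 369 CPM (median 350) in OHSCs. All 8 OHSC libraries were above all YHSC libraries, a 1.43-fold rise (log2 fold change 0.52, SE 0.0443, adjusted p = 4.02e-09). Mfsd1 had 122, 109, 102 and 111 CPM in YHSCs and 135 to 160 CPM (median 147) in OHSCs, again without overlap. Its rise was 1.35-fold (log2 fold change 0.43, SE 0.0529, adjusted p = 1.03e-06).

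Mcoln1 had 95.4, 88.1, 93.3 and 94.4 CPM in YHSCs and 103 to 113 CPM (median 109) in OHSCs. The groups did not overlap, and the rise was 1.19-fold (adjusted p = 5.74e-05). Lamp1 had 256, 236, 263 and 255 CPM in YHSCs and 263 to 296 CPM (median 273) in OHSCs. Here the ranges met at their ends, and the log2 fold change was 0.16 (adjusted p = 0.00442).

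Npc1, the membrane protein that exports cholesterol from lysosomes, went the other way. It had 34, 35, 33.9 and 36.8 CPM in YHSCs and 24.8 to 33.0 CPM (median 27.9) in OHSCs. The groups did not overlap, and Npc1 fell by 0.29 on the log2 scale (SE 0.0695, adjusted p = 0.00368). Its soluble partner in that export, Npc2, was 0.953-fold with an adjusted p of 0.381. Scarb2, a membrane protein that carries glucocerebrosidase to lysosomes, fell by 0.21 on the log2 scale (adjusted p = 0.0226), a call that was lost without the fourth YHSC library (adjusted p = 0.224).

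Of 7 proteases tested, 5 rose and 1 fell. Ctsd had 188, 177, 177 and 180 CPM in YHSCs and 203 to 255 CPM (median 227) in OHSCs. All OHSC libraries were above all YHSC libraries, a 1.28-fold rise (log2 fold change 0.35, SE 0.0454, adjusted p = 2.22e-06). The third OHSC library, which stood apart in macrophage markers, had the highest Ctsd, and without it the rise was 1.26-fold (adjusted p = 1.34e-06). The cysteine proteases Ctsb and Ctsl rose 1.17-fold and 1.16-fold, with adjusted p-values of 0.000919 and 0.000807. Ctsb too was highest in that library, at 441 CPM, and without it rose 1.15-fold (adjusted p = 0.000607). Ctsa, the protective protein of a lysosomal glycosidase complex, rose by 0.16 on the log2 scale (adjusted p = 0.00401), and Tpp1, a tripeptidyl peptidase, rose 1.09-fold (adjusted p = 0.0298).

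Ctss, a cysteine protease known for antigen processing in B cells and myeloid cells, had the largest change of any member. It had 18.9, 16.4, 17.8 and 21.3 CPM in YHSCs and 3.28 to 15.3 CPM (median 5.66) in OHSCs. No OHSC library reached the lowest YHSC library, and Ctss fell by 1.40 on the log2 scale (SE 0.342, adjusted p = 0.0138). The summed level of 8 B cell markers moved with it: it was 80.5 to 155 CPM in YHSCs and 31.5 to 38.0 CPM in OHSCs, and none of the 8 was at 0 in every library of either age. In the OHSC library with the most Ctss, the third, the summed level of 10 macrophage and monocyte markers was 126 CPM, against 33.6 to 55.9 CPM in the other OHSC libraries and 43.0 to 56.7 CPM in YHSCs. The study sorted lineage-negative cells, with surface markers of B cells and myeloid cells among those excluded. The part of B cells and macrophages in the Ctss difference was not tested. In bulk libraries fewer cells of a type and less RNA per cell cannot be told apart.

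**Figure D2:**
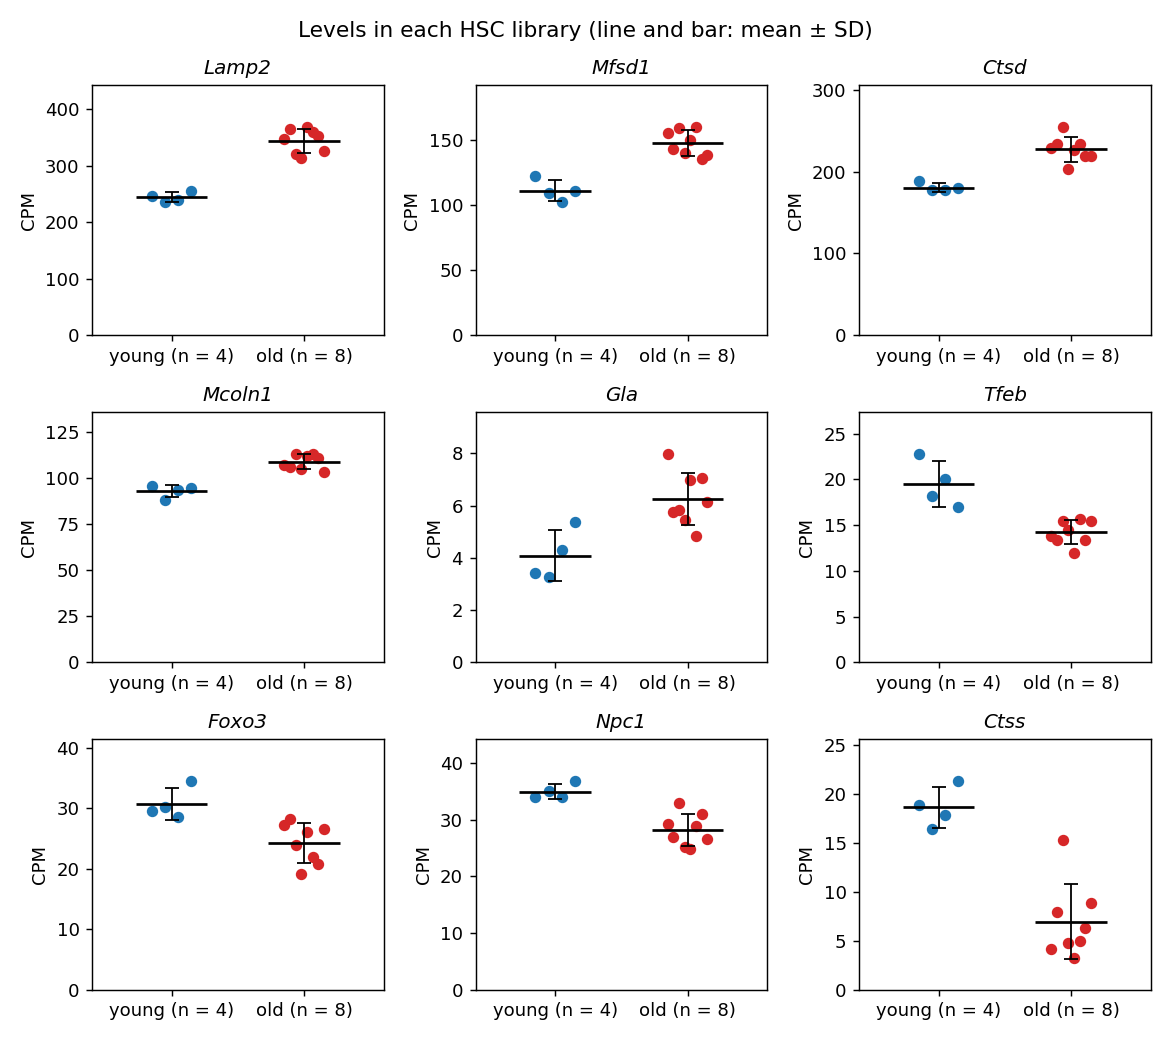
CPM (vertical axis, from 0) of 9 members in each YHSC library (blue, n = 4) and each OHSC library (red, n = 8), with the mean as a line and the SD as a bar. Lamp2, Mfsd1, Ctsd and Mcoln1 are higher in all OHSC libraries, Tfeb, Foxo3, Npc1 and Ctss are lower in all of them, and the Gla libraries of both ages overlap.

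Among 9 other hydrolases, 2 rose and 1 fell. Gla had 3.41, 3.26, 4.31 and 5.36 CPM in YHSCs and 4.85 to 7.98 CPM (median 6.00) in OHSCs. Its 1.55-fold rise was the largest of the members, at a low level, and the highest YHSC library lay within the OHSC range (log2 fold change 0.63, SE 0.149, adjusted p = 0.00294). Gaa, which degrades glycogen, rose 1.13-fold (adjusted p = 0.00782) and Man2b1, an alpha-mannosidase, fell by 0.15 on the log2 scale (adjusted p = 0.019). The other 6, Glb1, Hexa, Idua, Lipa, Neu1 and Smpd1, were not called. Among the soluble cofactors Grn, the progranulin gene, rose 1.11-fold (adjusted p = 0.0265), and 1.09-fold without the third OHSC library, where it was highest at 242 CPM (adjusted p = 0.0402).

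On the autophagy side 3 of 19 genes passed the test. None of the 7 initiation genes was called, and their median difference was -0.01 on the log2 scale. In the conjugation machinery 1 of 6 was called, Atg16l1, which directs the site of lipid conjugation and fell by 0.18 on the log2 scale (adjusted p = 0.0282). Of the ATG8 proteins, Map1lc3b, the LC3B gene, had 344, 322, 338 and 334 CPM in YHSCs and 347 to 400 CPM (median 380) in OHSCs. The groups did not overlap, and the log2 fold change was 0.20 (adjusted p = 0.000295). Gabarapl1 rose 1.10-fold (adjusted p = 0.0307).

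Sqstm1, which encodes the autophagy receptor p62, had 263, 238, 241 and 257 CPM in YHSCs and 220 to 264 CPM (median 244) in OHSCs. The ranges overlapped, and the ratio was 0.996 (log2 SE 0.0434, adjusted p = 0.951).

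Gabarapl1, Tpp1, Grn, Man2b1, Atg16l1 and Scarb2 each lost their call in 1 to 4 of the 12 fits that left out a library, with adjusted p-values up to 0.16, 0.111, 0.128, 0.0743, 0.122 and 0.224. Lamp2, Mfsd1, Ctsd, Mcoln1, Map1lc3b, Tfeb, Npc1 and Gla kept theirs without each library in turn.

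Of the 14 members with CACGTG in the promoter window, 8 rose and none fell with age, with a median log2 fold change of 0.16. Of the 27 tested members whose window lacked it, 5 rose and 5 fell, with a median of -0.01. Over the genome, 14.3% of 1434 tested genes with CACGTG and 13.7% of 11910 without it were higher in OHSCs, and 10.5% and 10.3% were lower. These counts are given as a description, with no test.

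**Figure D3:**
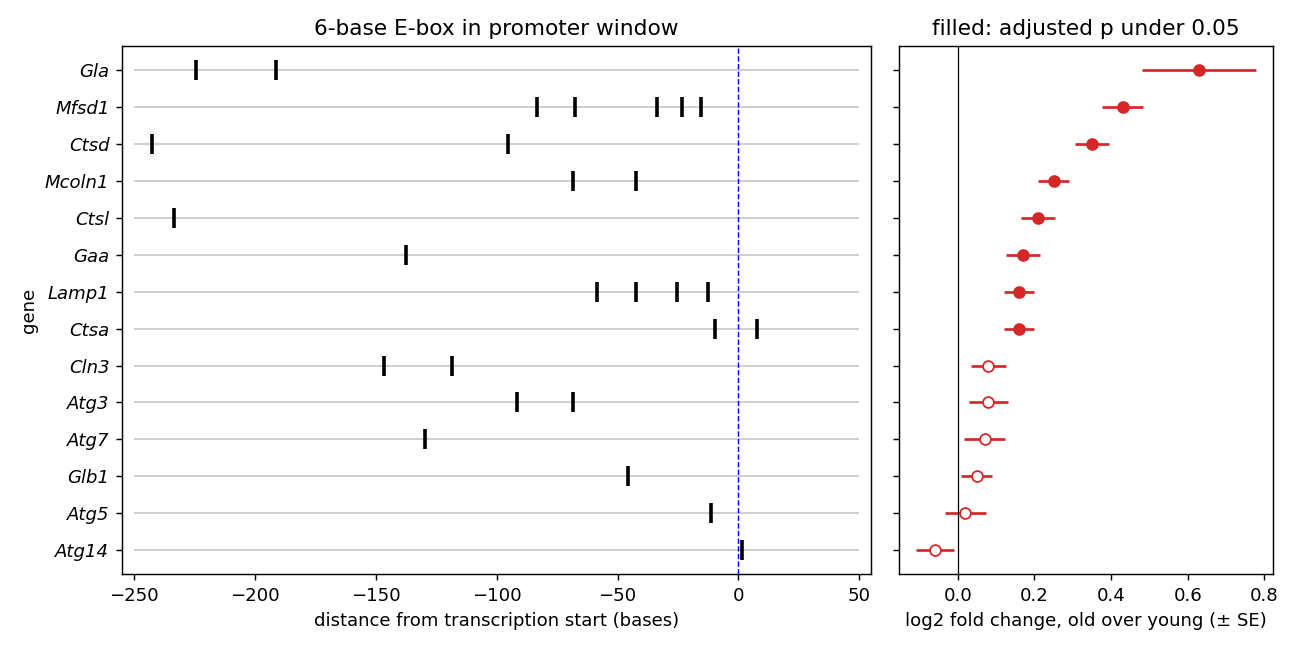
Left, the place of each CACGTG match (black marks) in the promoter window of the 14 members that hold one, by distance in bases from the transcription start (dashed line). Right, the log2 fold change of the same genes in OHSCs over YHSCs (± SE), filled where the adjusted p was below 0.05: the 8 filled genes all lie above 0, from Gla at 0.63 to Lamp1 at 0.16.

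Among 101 other genes of the pathway, 15 rose and 12 fell, against 11.9% and 8.67% of all genes. Of 17 subunits of the V-ATPase, the proton pump that acidifies lysosomes, 2 rose and 2 fell, led by Atp6v1d (log2 fold change 0.17) and Atp6v0b (-0.29). Of 22 genes of mTORC1 and TFEB control, 2 rose and 1 fell. Rragd, a Rag GTPase that recruits mTORC1 to lysosomes, rose from 1.47 ± 0.414 (SD, n = 4) to 3.04 ± 1.15 CPM (SD, n = 8; adjusted p = 0.0121), and Flcn, the folliculin gene, fell by 0.21 on the log2 scale (adjusted p = 0.00134). Of 30 further lysosomal genes, 8 rose and 7 fell, led by the asparaginyl protease Lgmn (log2 fold change 1.36, adjusted p = 8.69e-06) and the aminopeptidase Ctsh (-0.44, adjusted p = 9.08e-05). Of 32 further autophagy genes, 3 rose and 2 fell. Vmp1, a membrane protein needed for autophagosome formation, rose from 124 ± 7.74 (SD, n = 4) to 286 ± 23.2 CPM (SD, n = 8; log2 fold change 1.22, adjusted p = 9.64e-13), more than any of the 48 members.

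No member promoter was called more accessible with age. A promoter here runs from 1000 bp before to 100 bp after a RefSeq start, and 50 tested ATAC-seq regions covered the promoters of 46 members. At an adjusted p below 0.01 and a fold above 1.5, none was higher and 1 was lower in OHSCs, against 3.86% of 15632 promoter regions in either direction. At an adjusted p below 0.05 with no fold limit, none was higher and 26 were lower, against 5.44% and 36.7% of promoter regions. The median was -0.17 on the log2 scale at the members and -0.13 over all promoter regions.

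The 1 called promoter region was that of Ctss, at chr3:95526508-95527069 over the start and an exon of the gene. It had 3.36, 2.55, 3.2 and 3.24 CPM in YHSCs and 1.5, 1.51, 2.3 and 2.46 CPM in OHSCs. All OHSC libraries lay below all YHSC libraries, and accessibility fell by 0.67 on the log2 scale (SE 0.205, adjusted p = 0.00843). The call held in 3 of 8 fits that left out 1 library, with an adjusted p of up to 0.0476, and DESeq2 gave an adjusted p of 0.0136. The promoter regions of Tfeb (log2 fold change -0.18, adjusted p = 0.00407) and Mfsd1 (-0.20, adjusted p = 0.0152) did not pass the fold limit and lay near the median of all promoter regions.

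Within 5000 bp of a start, 73 regions at 47 members were tested. Of these, 2 were called higher in OHSCs and 2 lower, where 13.0% of all 89245 regions were called, 10.1% higher and 2.9% lower. The region at chr8:3502324-3502574, which overlaps an exon of Mcoln1, had 1.80, 1.86, 1.78 and 2.29 CPM in YHSCs and 4.56, 4.58, 4.20 and 4.69 CPM in OHSCs. Every OHSC library exceeded every YHSC library (log2 fold change 1.21, SE 0.18, adjusted p = 2.38e-07). The region at chr7:142384157-142384678, within an intron of Ctsd, had 2.42, 2.34, 2.25 and 2.76 CPM in YHSCs and 4.50, 3.38, 4.76 and 4.77 CPM in OHSCs. It was also higher in each OHSC library (log2 fold change 0.83, SE 0.177, adjusted p = 0.000175). Both calls held in all 8 fits that left out 1 library. Besides the Ctss promoter, the region lower in OHSCs lay in an intron of Ctsz, another cysteine protease gene, at chr2:174437701-174437851. It had 1.84 ± 0.22 CPM in YHSCs and 0.976 ± 0.263 CPM in OHSCs (SD, n = 4 each). No OHSC library was over the minimum level of 1.5 CPM, so the region was tested only because it was high in YHSCs, and its call is not read as a change.

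Of 130 tested regions inside 46 members, 6 were called higher and 7 lower, against 8.35% and 3.04% of 59875 regions inside any gene. This count was added after values of these data were seen. The called regions of Mfsd1, Atg14 and Ctsz were over the minimum level in 1 age alone, and so had to differ. Among the 127 regions over it in both ages, 5 were higher and 5 lower, against 6.88% and 2.73% of 58500 regions inside any gene. Here both ages means at least 1 library of each age. With no minimum level, 6 were higher and 13 lower of 171, against 7.73% and 3.26% of 82538. Besides those of Mcoln1 and the Ctsd intron, the higher regions over the minimum in both ages lay in Ctsb, in Gla and in a further part of Ctsd. The Ctsb region, at chr14:63131809-63132812 in an intron, had 5.54, 4.95, 5.56 and 6.63 CPM in YHSCs and 12, 8.96, 11.4 and 10.1 CPM in OHSCs, again without overlap (log2 fold change 0.89, SE 0.122, adjusted p = 3.9e-08). The Gla region had a log2 fold change of 0.82 (adjusted p = 0.000538) and the further Ctsd region of 0.99 (adjusted p = 7.98e-05). The 4 genes with such a higher region, Ctsb, Ctsd, Gla and Mcoln1, also had higher mRNA in OHSCs, as had 24.4% of the 2031 tested genes of the genome that held one.

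The Mfsd1 region, at chr3:67601383-67602139 in the last intron, had 0.861, 0.826, 0.868 and 0.71 CPM in YHSCs and 16.4, 17.2, 15.7 and 18.1 CPM in OHSCs. The libraries of each age lay close together and far from those of the other age. The Atg14 region, at chr14:47541438-47541927, had 2.83, 2.06, 2.09 and 1.74 CPM in YHSCs and 0.202 to 0.444 CPM in OHSCs. For both regions the values are a description, with no test.

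The lower regions over the minimum in both ages lay in Idua, Tfeb, Npc1 and, with 2 regions, Ctss. The Tfeb region, which overlaps an exon at chr17:47768495-47769300, had 8.94, 12.7, 9.9 and 10.1 CPM in YHSCs and 6.73, 6.09, 7.51 and 4.48 CPM in OHSCs. Each OHSC library was below each YHSC library (log2 fold change -0.73, SE 0.13, adjusted p = 8.99e-06). The regions of Idua and Npc1 had log2 fold changes of -1.14 (adjusted p = 2.42e-07) and -0.68 (adjusted p = 1.27e-05). The second Ctss region had 2.13, 1.79, 2.09 and 2.76 CPM in YHSCs and 1.09, 1.08, 1.94 and 0.848 CPM in OHSCs. Only 1 OHSC library was over the minimum of 1.5 CPM, so the region passed the filter through YHSCs. Its call, which held in 2 of 8 fits that left out 1 library, is not read as a change. Of these 4 genes Tfeb, Npc1 and Ctss also had lower mRNA in OHSCs, as had 24% of the 1235 tested genes of the genome with a lower region, and the mRNA of Idua was not called.

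H3K27ac was measured at 51 peaks near the starts of 45 members. The median of log2(OHSC/YHSC signal) was -0.05 there and -0.03 over 13392 promoter peaks, and it ran from -0.17 to 0.08 when single libraries of both ages were compared. A peak was counted when the group means differed more than 1.5-fold and the libraries, taken one by one, at least 1.2-fold. In that count, 0 peaks were higher and 2 were lower, against 3.81% of promoter peaks in either direction. No test was applied to this rule. The peak at the Ctss start had a signal of 2.57 and 2.55 in YHSCs and 1.84 and 1.54 in OHSCs. One of 2 Foxo3 promoter peaks had 5.05 and 5.13 in YHSCs and 2.78 and 3.82 in OHSCs. The other Foxo3 peak, at chr10:42276861-42278714, had a ratio of 0.877.

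In YHSCs, H3K4me3, a mark of active promoters, had a peak at the start of 46 members, with a median signal of 22 against 17.4 over 14684 promoter peaks. The 2 without one were Atg7 and Ctsk. H3K27me3, a mark of repressed genes, had a peak at the start of Ctsk and of no other member.

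The knockdown comparisons asked whether lowering the Btaf1 variant in OHSCs moved these genes. Gene-level Btaf1 counts hold all its transcripts and so check the shRNAs only in part. Btaf1 had 149 and 152 CPM in the cultured controls and 116, 125, 120 and 122 CPM in the 4 knockdown libraries, and it fell by 0.31 on the log2 scale (adjusted p = 0.00151). In transplanted HSCs it had 156 and 161 CPM in controls and 127, 135, 116 and 114 CPM after knockdown, with a log2 fold change of -0.37 and an adjusted p of 0.791.

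No member was called after knockdown in culture, against 3.36% of 19763 genes, and 9 had an unadjusted p below 0.05, as had 15.3% of all genes. The median of the members was 0.03 on the log2 scale. No member passed the rule of a fold above 1.5 with an unadjusted p below 0.05, which 3.42% of all genes passed.

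Sqstm1 came nearest to a call. It had 348 and 375 CPM in the cultured controls, 335 and 299 CPM with shRNA1, and 324 and 316 CPM with shRNA2. Each knockdown library was below both controls (log2 fold change -0.18, SE 0.0475, adjusted p = 0.0617), and DESeq2 gave an adjusted p of 0.0499. Wipi1, which binds the lipid that marks forming autophagosomes, had 9.68 and 9.07 CPM in controls and 13.2, 12, 12.1 and 12 CPM after knockdown. These did not overlap either (log2 fold change 0.41, SE 0.113, adjusted p = 0.0696).

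Tfeb had 19.2 and 19.7 CPM in cultured controls and 18.9, 15.4, 17.3 and 19.9 CPM after knockdown (adjusted p = 0.683). Mfsd1 had 123 and 119 CPM in controls, 116 and 122 CPM with shRNA1, and 96.4 and 96.9 CPM with shRNA2 (adjusted p = 0.555 over both shRNAs). Only the shRNA2 libraries were low, and against the control alone shRNA2 gave a log2 fold change of -0.32 (adjusted p = 0.000562), while shRNA1 gave -0.02. Lamp1, Mcoln1 and Map1lc3b had ratios of 0.998, 1.07 and 1.02, with adjusted p-values of 0.984, 0.577 and 0.843 over both shRNAs.

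Taken one at a time in culture, shRNA1 gave 6 members higher and 1 lower, against 9.99% of 19184 genes called, 4.2% higher and 5.79% lower. shRNA2 gave 4 higher and 3 lower, against 7.69% of 19118 genes called, 3.47% higher and 4.22% lower. Sqstm1 was lower with each of them (log2 fold change -0.18, adjusted p = 0.0147 with shRNA1, and -0.17, adjusted p = 0.012 with shRNA2). With shRNA1 the kinase genes Ulk1 (0.24, adjusted p = 0.00408) and Ulk2 (0.25, adjusted p = 0.00342), which start autophagy, were higher, while shRNA2 gave 0.07 (adjusted p = 0.578) and -0.01 (adjusted p = 0.939). Mcoln1 was also higher with shRNA1 (0.17, adjusted p = 0.0446) against 0.01 with shRNA2 (adjusted p = 0.938), and Wipi1 had 0.44 (adjusted p = 0.0317) and 0.37 (adjusted p = 0.0942). The difference between the shRNAs was not tested. With shRNA2 Map1lc3a was lower (-0.40, adjusted p = 0.0276) and Grn higher (0.21, adjusted p = 0.00787), while shRNA1 gave 0.03 and -0.01. The largest called change with shRNA2 was the rise of Ctss (1.67, adjusted p = 0.0476), at a low level. Ctss had 1.52 and 0.89 CPM with shRNA2 against 0.406 and 0.348 CPM in controls, and shRNA1 gave 0.53 (adjusted p = 0.719). Scarb2 (0.28, adjusted p = 0.0225) and Ctsd (0.14, adjusted p = 0.0112) were also higher with shRNA2. Both comparisons share the 2 control libraries.

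**Figure D4:**
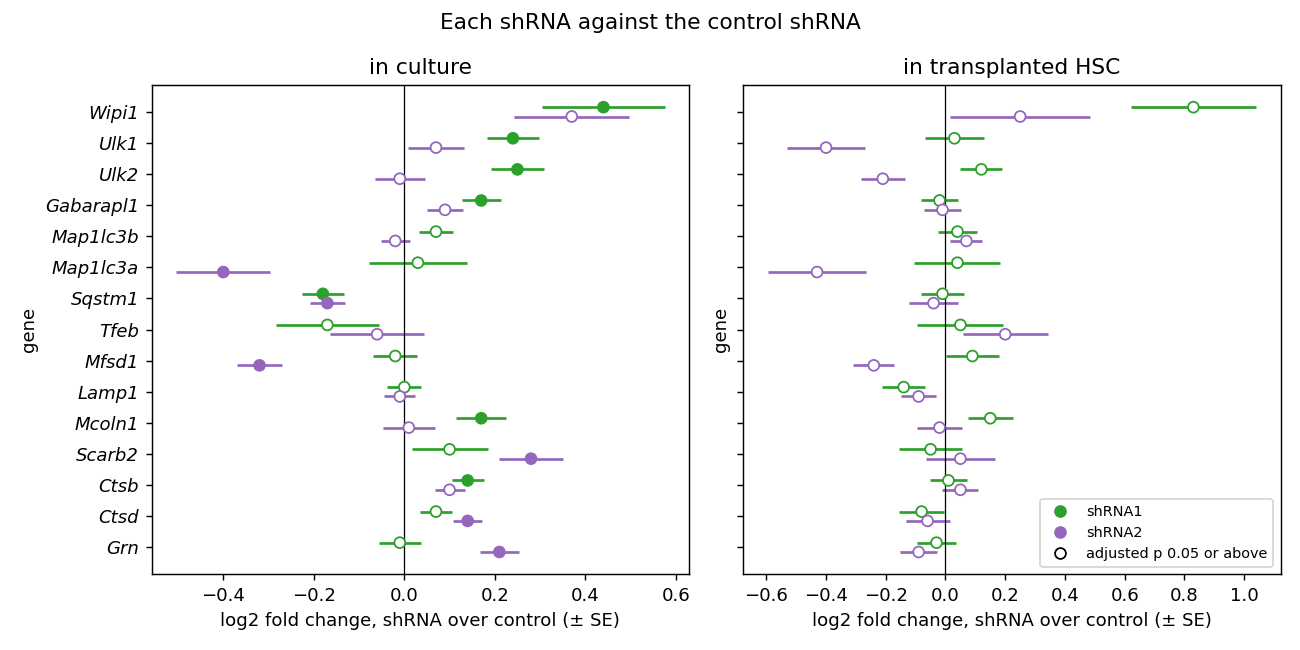
The log2 fold change (± SE) of 15 members with shRNA1 (green) and shRNA2 (purple) against the control shRNA, in culture (left) and in transplanted HSCs (right), with filled points for an adjusted p below 0.05. In culture Sqstm1 is filled and below 0 with both shRNAs and Mfsd1 with shRNA2, and in transplanted HSCs no point is filled.

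In transplanted HSCs no member was called either, where edgeR called 0.0% of 20350 genes and DESeq2 called 60 genes. An unadjusted p below 0.05 was found for 3 members (Gaa, Atg7 and Wipi1) and 5.59% of all genes, no member passed the rule of fold and unadjusted p that 2.24% of genes passed, and DESeq2 called none of the members. Wipi1 had 5.08 and 4.27 CPM in controls, 7.63 and 9.06 CPM with shRNA1, and 4.98 and 6.19 CPM with shRNA2. It was again above the controls on average, but the libraries overlapped (log2 fold change 0.57, SE 0.251, adjusted p = 0.881). Sqstm1 had 194 and 182 CPM in controls and 196, 178, 169 and 196 CPM after knockdown, within the spread of the libraries (adjusted p = 0.983). Ctss had 4.46 and 6.47 CPM in controls, 2.6 and 5.51 CPM with shRNA1, and 15.5 and 9.92 CPM with shRNA2. Alone, shRNA2 gave it a log2 fold change of 1.22 (adjusted p = 0.167). The 10 macrophage and monocyte markers summed to 53.7 to 77.8 CPM with shRNA2, 32.8 to 36.3 CPM with shRNA1 and 33.9 to 38.7 CPM in controls. Their part in the Ctss values was not tested.

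Tfeb had 15.4 and 17.5 CPM in transplanted controls and 17.3, 16.9, 18.4 and 19.4 CPM after knockdown (adjusted p = 0.953). Mfsd1 had 130 and 139 CPM in controls, 133 and 155 CPM with shRNA1, and 113 and 114 CPM with shRNA2 (adjusted p = 0.976). The shRNA2 libraries were again the low ones, with an adjusted p of 0.237 for shRNA2 alone. The log2 fold changes of Lamp1, Mcoln1 and Map1lc3b were -0.11, 0.07 and 0.05, with adjusted p-values of 0.919, 0.961 and 0.956. No member was called for a difference of the knockdown effect between transplanted and cultured HSCs, against 0.21% of 21443 genes. In simulated counts with 200 genes of any level changed 2-fold, that comparison called 42% of them. The fit of transplanted HSCs called 44.5%, so a lack of calls does not show that a gene was unchanged. Among the 101 other pathway genes, Laptm5, which encodes a lysosomal membrane protein of blood cells, was called in culture (log2 fold change 0.19, adjusted p = 0.0315) and none in transplanted HSCs.

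Control shRNA libraries from culture were set against those from transplanted HSCs. In culture 10 members were higher and 15 lower (53.2% called), against 40.8% of 21443 genes, 19.9% higher and 20.9% lower, and 11 passed 1.5-fold, against 24.9% of genes. The setting and the experiment changed together and cannot be told apart. The sort before sequencing was part of this. In the study, transplanted donor cells were sorted again by HSC surface markers. Cultured cells were sorted for GFP, with no HSC gate stated. Cell markers differed too: the 7 HSC markers summed to 1210 to 1250 CPM in culture and 1660 to 1820 CPM after transplantation (4 called lower, none higher), and the 7 megakaryocyte markers to 1390 to 1420 and 452 to 627 CPM (3 called higher, none lower). The 8 erythroid markers summed to 154 CPM in both cultured libraries and 42.7 to 72.5 CPM after transplantation, with Tfrc and Epor called higher. Hba-a1 was at 0 in both cultured libraries, and the part of these markers in the differences of the members was not tested. Ctsd had 395 and 385 CPM in culture and 202 and 179 CPM after transplantation, a 2.02-fold difference (adjusted p = 1.05e-08). Sqstm1 had 348 and 375 CPM in culture and 194 and 182 CPM after transplantation, a 1.90-fold difference (adjusted p = 3.2e-07). In both genes the libraries of each setting lay far apart.

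Wipi1 and Gla were also higher in culture, with log2 fold changes of 0.98 (adjusted p = 0.0027) and 0.91 (adjusted p = 0.0138). Wipi1 had 9.68 and 9.07 CPM in culture against 5.08 and 4.27 CPM, and Gla had 15.6 and 12 CPM against 7.86 and 6.60 CPM. The call of Gla was lost without the first cultured control (adjusted p = 0.123) or the second transplanted control (adjusted p = 0.0949).

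Lower in culture were Atg14, the subunit that directs the autophagy lipid kinase, at 27.9 and 32.4 against 49.4 and 47.3 CPM (log2 fold change -0.70, adjusted p = 0.000595), and Cln3 at 59.0 and 59.5 against 97.0 and 88.8 CPM (-0.67, adjusted p = 0.000409). Idua, which degrades glycosaminoglycans, had 42.7 and 41.8 against 66.5 and 63.1 CPM (-0.64, adjusted p = 1.38e-05). Ctss had 0.406 and 0.348 CPM in culture and 4.46 and 6.47 CPM after transplantation (-3.86, SE 0.904, adjusted p = 0.00595). Its call was lost without either cultured control, with an adjusted p of up to 0.0547. The 8 B cell markers summed to 17.2 to 17.9 CPM in culture and 26.6 to 28.1 CPM after transplantation. In each setting 1 of them was above 1 CPM in every library, and Pax5, Ly6d and Ms4a1 were at 0 in both. Of the 4 tested, Cd79b and Vpreb3 were called lower in culture. The 10 macrophage and monocyte markers summed to 46.3 to 50.8 CPM in culture and 33.9 to 38.7 CPM after transplantation, with Adgre1, C1qa, C1qb and Ms4a7 at 0 in culture. None of the 10 was called higher in culture, and C1qa, C1qb and C1qc were called lower. The part of these cells in the difference was not tested. Among the 101 other pathway genes 23 were higher and 23 lower, against 19.9% and 20.9% of all genes, led by the mitophagy receptor Bnip3, at 367 ± 4.59 CPM in culture and 48.8 ± 1.54 CPM after transplantation (SD, n = 2 each), and by Ctsh, at 4.21 ± 0.0492 and 34.1 ± 0.349 CPM.

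Among the progenitors, the summed level of the 48 members was 7040 and 7290 CPM in GMP, 5320 and 5730 CPM in CMP, and 4420 and 4550 CPM in MEP. GMP give rise to granulocytes and macrophages, and MEP to red cells and platelets. Granulocyte markers summed to 67300 to 68100 CPM in GMP and 27.4 to 67.3 CPM in MEP, and erythroid markers to 8290 to 8760 CPM in MEP and 252 to 276 CPM in GMP. These 2 lists followed the labels, while megakaryocyte markers did not set MEP apart. The latter summed to 68.7 to 85.0 CPM in MEP, 46.1 to 90.2 CPM in GMP and 696 to 699 CPM in CMP. Gp1bb and Ppbp were at 0 in both MEP libraries. The 3 comparisons among the progenitors share libraries.

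**Figure D5:**
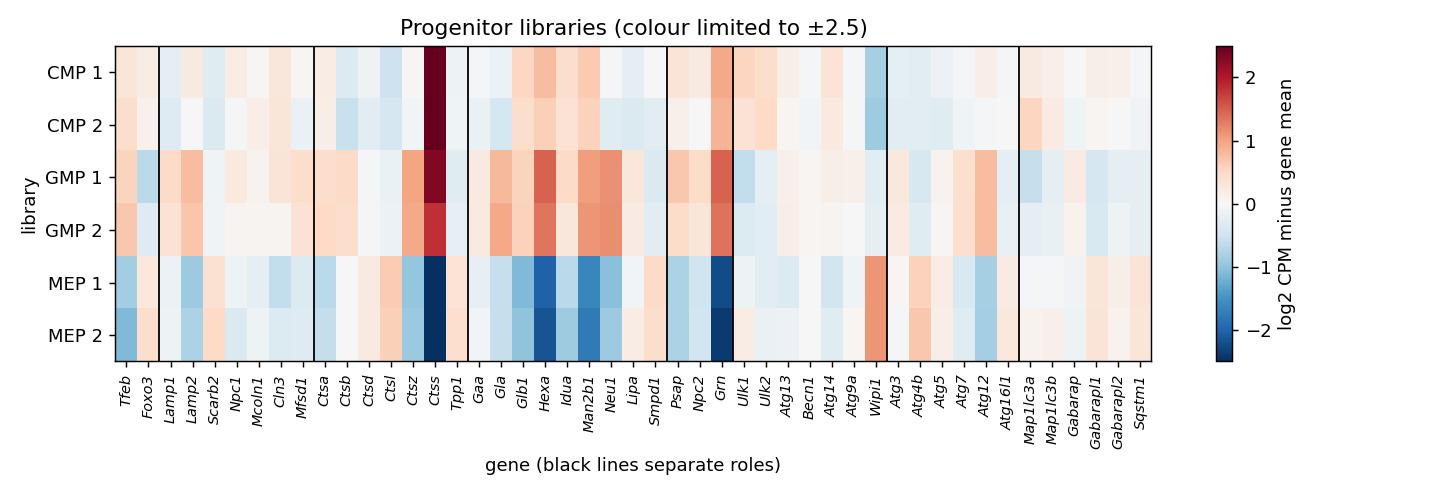
The log2 CPM of 47 members minus each gene's mean over the 6 progenitor libraries (colour, limited to ±2.5), with libraries as rows and genes as columns grouped by role. The MEP rows are lowest at Ctss, Grn, Hexa and Man2b1 and highest at Wipi1, while the GMP and CMP rows are both above 0 at Ctss, Grn, Hexa and Man2b1, with CMP above GMP at Ctss.

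Of 47 members, 14 were higher and 28 lower in MEP (89.4% called), against 61.4% of 18234 genes, 27.7% higher and 33.7% lower, and 26 passed 1.5-fold, against 43.7% of genes. Among 9 other hydrolases 8 were lower, as were 6 of 7 membrane proteins, 4 of 7 proteases and all 3 soluble cofactors. Among the autophagy roles 6 of 19 were lower and 8 were higher. The median of all members was -0.41 on the log2 scale, against -0.03 over all genes.

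Ctss had 33.5 and 23.9 CPM in GMP and 0.339 and 0.205 CPM in MEP (log2 fold change -6.75, SE 0.271, adjusted p = 1.26e-10). Its MEP level was near 0, so the size of this fold is not exact. Grn had 242 ± 13.0 CPM in GMP and 18.2 ± 1.56 CPM in MEP (SD, n = 2 each; -3.78, adjusted p = 8.83e-14). Hexa, a subunit of the hexosaminidase that degrades gangliosides, had 427 ± 27.5 and 38.1 ± 2.71 CPM (-3.53, adjusted p = 4.11e-13). Man2b1 had 418 ± 11 and 61.2 ± 4.18 CPM (-2.82, adjusted p = 1.07e-13). The libraries of both cell types did not overlap for any of these genes.

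Higher in MEP than in GMP were Wipi1 at 29.9 and 30.1 against 11.6 and 12 CPM (log2 fold change 1.30, adjusted p = 1.3e-06) and Atg4b, the protease that processes ATG8 proteins, at 181 ± 9.33 against 91.2 ± 4.15 CPM (0.94, adjusted p = 2.19e-08). Foxo3 and Ctsl were also higher, by 0.80 (adjusted p = 0.000311) and 0.74 (adjusted p = 6.69e-05) on the log2 scale. Tfeb was lower in MEP, at 6.51 and 5.60 CPM against 17.5 and 19.2 CPM in GMP (-1.65, adjusted p = 8.06e-07). The 2 transcription factors of the set thus differed in opposite directions.

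Against CMP, MEP had 15 members higher and 23 lower (80.9% called), against 64.6% of all genes, 28.9% higher and 35.6% lower, and 22 passed 1.5-fold, against 46.7% of genes. The lower genes were led by Ctss (log2 fold change -7.20), Grn (-3.20), Hexa (-2.77) and Man2b1 (-2.31), and the higher ones by Wipi1 (1.96), Ctsl (1.09), Atg4b (0.91) and Scarb2 (0.77), with adjusted p-values from 4.91e-13 to 1.76e-06.

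GMP had 25 members higher than CMP and 7 lower (68.1% called), against 34.8% of 18234 genes, 18.8% higher and 16.0% lower, and 14 passed 1.5-fold, against 16.7% of genes. Neu1, a sialidase, had 74.0 ± 0.863 CPM in GMP and 29.6 ± 4.07 CPM in CMP (SD, n = 2 each; log2 fold change 1.37, adjusted p = 5.56e-07). Gla had 44.5 and 48.5 against 22.8 and 18.7 CPM (1.21, adjusted p = 4.8e-06), Ctsz had 545 ± 9 against 274 ± 13.7 CPM (1.04, adjusted p = 8.01e-09) and Ctsb had 498 ± 9.67 against 267 ± 28.9 CPM (0.95, adjusted p = 9.9e-08).

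By the E-box CACGTG, the counts differed from comparison to comparison. Of the 14 members with it, 10 were higher in GMP than in CMP and none lower, against 28% and 17.5% of all genes with it, and of the 27 members without it 12 were higher and 6 lower, against 22.9% and 19.2% of all genes without it. In MEP against GMP, 2 with it were higher and 11 lower, against 37% and 37.8% of all genes with it, and 11 without it were higher and 14 lower, against 32.4% and 39.4%. In MEP against CMP, 5 with it were higher and 8 lower, against 38.7% and 37.2%, and 8 without it were higher and 14 lower, against 32.5% and 41.7%. In culture against transplantation, 2 with it were higher and 5 lower, against 25.6% and 24.8%, and 7 without it were higher and 9 lower, against 23.8% and 24.9%. In CMP against YHSCs, 7 with it were higher and 5 lower, near the 43.8% and 42.5% of all genes with it, and 9 without it were higher and 13 lower, against 35.4% and 48.8%. After knockdown none was called. These counts are a description, with no test.

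Of the 19 autophagy genes, 7 were higher and 5 lower in GMP than in CMP. Of the 6 genes of ATG8 proteins and a receptor 3 were lower and 1 higher, while 4 of 6 conjugation genes were higher and none lower. Ulk1 had 32.9 ± 4.21 CPM in GMP and 62.4 ± 5.11 CPM in CMP (log2 fold change -0.87, adjusted p = 0.000125), and Ulk2 39.8 ± 0.882 and 65.7 ± 2.02 CPM (-0.67, adjusted p = 5.35e-05). Map1lc3a (-0.74, adjusted p = 0.0268) and Foxo3 (-0.59, adjusted p = 0.00678) were also lower. Without the first GMP library the adjusted p of Map1lc3a was 0.173 and that of Foxo3 was 0.0752, and without the second CMP library that of Map1lc3a was 0.212.

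The other genes of the pathway followed a like split between MEP and GMP, with 25 higher and 59 lower in MEP of 100 tested, against 27.7% and 33.7% of all genes. The V-ATPase gene Tcirg1 had 190 ± 11.7 CPM in GMP and 12.4 ± 0.123 CPM in MEP (SD, n = 2 each; log2 fold change -3.99, adjusted p = 5.15e-14). Tfec, a relative of Tfeb, had 96.0 ± 6.81 CPM in GMP and 0.136 ± 0.000556 CPM in MEP (-9.47, adjusted p = 1.95e-13). Its MEP level was near 0, so it passed the count filter through GMP and CMP and the size of its fold is not exact. In the other direction the aspartic protease Ctse had 1210 ± 111 CPM in MEP and 12 ± 1.1 CPM in GMP (6.60, adjusted p = 1.49e-12).

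Between CMP and YHSCs, cell type and the set of libraries differed together and cannot be told apart, and the median of all 22360 genes was -0.33 on the log2 scale. Against this shift, 19 members were higher and 21 lower in CMP (85.1% called), against 81.1% of all genes (33.5% higher, 47.6% lower), a share near the background. Of the members 20 passed 1.5-fold, against 64.2% of genes. The largest differences were Gla, at 22.8 and 18.7 CPM in CMP against 3.26 to 5.36 CPM in YHSCs (log2 fold change 2.40, adjusted p = 2.63e-10), and Ctsl, at 16.7 ± 0.766 (SD, n = 2) against 81.0 ± 2.36 CPM (SD, n = 4; -2.22, adjusted p = 2.47e-15). Ctsz (1.60), Man2b1 (1.23) and Ctss (1.18) were higher in CMP, with adjusted p-values from 2.99e-15 to 2.6e-09. Cln3 (-1.50), Gabarapl1 (-1.37) and Map1lc3a (-1.30) were lower, with adjusted p-values from 6.16e-14 to 1.98e-07. Of 6 genes of ATG8 proteins and a receptor 5 were lower in CMP and none higher, and of 6 conjugation genes 5 were higher and none lower.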

How the data were processed

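mRNA-seq, ATAC-seq and histone ChIP-seq libraries were grouped by their labels. For mRNA-seq, the authors used STAR on trimmed reads with mm10, then featureCounts, and deposited raw counts of reads per gene. The labels and the study's methods name different kits for the HSC libraries. For ATAC-seq, the deposited unit is raw counts over 127695 consensus regions, aligned with BWA. For H3K27ac, H3K4me3 and H3K27me3 the authors deposited a signal per peak, beside fold change and log2 columns of their own comparison that were not used. In total, 8 columns of per-sample values, 4 of old ATAC-seq and 4 of old H3K4me3 and H3K27me3 libraries, matched no listed sample and were not used, and 92 spike-in RNAs listed with the HSC genes stayed out of library sizes and tests.

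Counts were scaled with TMM, filtered with filterByExpr and tested with edgeR 4.0.16 (robust quasi-likelihood) in R 4.3.3. The fits between ages held the 12 HSC libraries, each knockdown fit the 6 libraries of its experiment, the interaction and culture comparisons all 12 shRNA libraries, the progenitor comparisons 6 libraries, and the last comparison CMP and YHSCs. An ATAC-seq region was tested when 4 or more libraries had above 1.5 CPM. DESeq2 1.42.0 and limma 3.58.1 served as alternatives, and the pipeline was tested on simulated data. Promoter sequences came from RefSeq, gene places and exon lengths from GENCODE M21. Tables were made with Python 3.11.15, pandas 2.3.3 and bedtools 2.31.1.

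The members and lists were chosen with earlier results of these data known. Named in each comparison were up to 4 called members with the largest change each way, with Tfeb, Mfsd1, Lamp1, Mcoln1, Sqstm1 and Map1lc3b given in the age and knockdown comparisons, other pathway genes only as the largest change per list, and Btaf1; Ctsb, Ctsl, Gaa, Grn and other members were added after their values were seen. Errors after ± are SDs between libraries, and SEs are those of the fit. No 2 libraries of a group were alike within sampling noise. The labels and methods used here do not state the strand setting of the counting. ATAC-seq regions anywhere in a member gene were added after the data were seen. Alternatives were other tools, scalings, filters and call rules, and each library left out in turn.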

Additional observations from a re-analysis of the deposited data

Results flagged for a closer look

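In groups of 4 to 10 libraries, a library was singled out when its gap to the nearest other library was large for the range of its group by Dixon's 95% value, which chance alone gives in about 1 of 20 groups. Of 94 groups looked at (47 members in YHSCs and in OHSCs), 4 held such a library. Scarb2 had 50.0 CPM in YHSC replicate 4, against 40.5 to 41.4 CPM in the other 3 YHSC libraries, and the age call of Scarb2 was lost without it. Ctss had 15.3 CPM in OHSC replicate 3, against 3.28 to 8.82 CPM in the other OHSC libraries. Tpp1 had 174 CPM in YHSC replicate 1, against 161 to 163 CPM in the others, and Npc2 had 74.4 CPM in YHSC replicate 2, against 82.5 to 83.9 CPM.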

How the results depend on the processing

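A call rule that also asks for a fold above 1.5 left 1 member higher and 1 lower with age, 6 and 5 in cultured against transplanted controls, 7 and 19 in MEP against GMP, 5 and 17 in MEP against CMP, 10 and 4 in GMP against CMP, and 11 and 9 in CMP against YHSCs. With DESeq2, and with no filter on low counts, 1 member was higher and 1 lower after knockdown in culture; shRNA1 alone gave 6 and 1 there, and shRNA2 alone gave 4 and 3, where 9.99% and 7.69% of all genes were called. The Ctss promoter region was not called with DESeq2 (0 lower); with no fold limit at an adjusted p below 0.05, 26 member promoter regions were lower, within 5000 bp of a start 2 regions were higher and 2 lower, and anywhere in a member gene, an alternative chosen after seeing the data, 6 were higher and 7 lower (5 and 5 for regions over the minimum in both ages, 6 and 13 with no minimum). No H3K27ac peak was lower with 0.5 added to every signal (0), nor with limma with or without the replicate block (0).

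With 1 library left out at a time, 11 to 15 members were higher and 3 to 7 lower with age, the 3 being without YHSC replicate 4. There were 0 higher and 0 to 1 lower after knockdown in culture (Sqstm1, without shRNA1 replicate 1, adjusted p = 0.0464), 0 in transplanted HSCs and 0 for the difference between them. The ranges were 8 to 10 higher and 11 to 16 lower for cultured against transplanted controls, 11 to 14 and 26 to 29 for MEP against GMP, 12 to 15 and 21 to 23 for MEP against CMP, 19 to 25 and 5 to 7 for GMP against CMP, and 18 to 20 and 17 to 22 for CMP against YHSCs. For ATAC-seq they were 0 higher and 0 to 1 lower, the 0 without YHSC replicate 1, 3 or 4 or OHSC replicate 5 or 6. For H3K27ac they were 0 higher and 1 to 3 lower, with a median from -0.16 to 0.03.

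Deviations of same-numbered YHSC and OHSC libraries correlated from -0.0565 to 0.0588, so their numbers were not taken as pairs. In groups of 2 libraries the correlation was 0.181 between CMP and GMP, 0.137 between transplanted control and shRNA1, 0.113 between CMP and MEP, and from -0.0421 to 0.0487 in the rest, and 2 pairs were too few to take the numbers as pairs. With the replicate block, 11 members were higher and 4 lower with age, and Ctss and Foxo3 had adjusted p-values of 0.215 and 0.0676; the block moved no other count of members by over 1.5 times. No call among the named genes reversed under any alternative run. After knockdown in transplanted HSCs edgeR called 0 of all genes and DESeq2 60, so the lack of called members there is not particular to them. The cause of these shifts was not tested.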
